A study of Mus musculus with 6 samples.

Results

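The stress-responsive transcription factor ATF4, its stress target genes and the enzymes that make serine and feed it into one-carbon metabolism were followed in brown adipose tissue (BAT) of WT and sST2-KO mice. The group was chosen by gene name, with earlier results of these data known. It holds Atf4, Ddit3, Trib3, Chac1, Sesn2, Asns, Phgdh, Psat1, Shmt2 and Mthfd2. All 10 genes were found among the 35976 genes of the count table, and all 10 were among the 14542 genes with enough counts to be tested. Chac1 and Psat1 rose about 3-fold in sST2-KO BAT. The other 8 members did not pass the test, although Sesn2, Asns and Trib3 had lower means in sST2-KO BAT. The transcript of Atf4 itself was abundant in both genotypes and overlapped between them.

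sST2 is the soluble form of the IL-33 receptor, encoded by Il1rl1. The sST2-KO mice carry a CRISPR/Cas9 deletion, made in C57BL/6J mice, of the Il1rl1 intron that holds the stop codon of the soluble form, while the membrane-bound form ST2L is left. They were compared with WT littermates. All mice of both groups were 10 weeks old and male, had the sympathetic nerves of BAT cut surgically, and were then kept in the cold at 10 °C for 8 h. Poly-A RNA of BAT was sequenced in 3 WT and 3 sST2-KO libraries, and the total counts per library lay between 8159442 and 12874809. The sample labels number the libraries without naming an animal, so the p-values measure the spread between these libraries. Il1rl1 itself was read in 19, 19 and 6 counts in WT replicates 1 to 3 and in 55, 69 and 142 counts in the sST2-KO libraries, a log2 fold change of 2.56 ± 0.57 (SE, n = 3 per group, edgeR adjusted p = 0.0239). The counts add the soluble and the membrane-bound transcript and so do not check the genotype.

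In the integrated stress response, kinases that sense unfolded protein, missing amino acids, viral RNA or lack of haem phosphorylate the translation factor eIF2. General translation then slows while the Atf4 mRNA is translated more, so that ATF4 protein can change with no change of its transcript. ATF4 pairs with C/EBP proteins on response elements in the promoters of genes for amino acid synthesis, amino acid transport, redox defence and, under lasting stress, cell death. Its targets include the enzymes that make serine from a glycolytic intermediate and the mitochondrial enzymes that move the carbon of serine onto folate. In brown adipocytes, which are rich in mitochondria, this response is known to be engaged by mitochondrial stress.

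The libraries also differed in their cell type markers. The summed level of 8 brown adipocyte markers was 9783, 12570 and 17750 CPM (counts scaled to a fixed library size with the TMM factors of edgeR) in the WT libraries and fell short of that in sST2-KO, at 1468, 3184 and 948 CPM (replicates 1 to 3 in order throughout), and 6 of the 8 markers were lower past the test. Ucp1, the uncoupling protein of brown adipocytes, had a log2 fold change of -4.04 ± 0.87 (adjusted p = 0.0226). The 7 T cell markers in the table summed to 13.9 to 15.5 CPM in WT and 123 to 151 CPM in sST2-KO, with 6 of 7 higher past the test, and the 6 markers of cycling cells summed to 30.0 to 54.2 CPM and 121 to 208 CPM, with 6 of 6 higher past the test. The 8 skeletal muscle markers summed to 1209, 20.5 and 6.29 CPM in WT and 6359, 3441 and 14860 CPM in sST2-KO. No muscle marker passed the test, and 8 of 8 had no overlap between the groups. Over all genes tested, 21.8% had sST2-KO above WT without overlap, and 10.5% passed as higher and 9.10% as lower. Macrophage markers summed to 739 to 1018 CPM and 1318 to 5696 CPM (2 of 8 higher past the test), and neutrophil markers to 30.6 to 132 CPM and 143 to 687 CPM (2 of 6 higher). The 6 endothelial markers summed to 1015 to 1257 CPM and 1019 to 1595 CPM, with 1 higher and 1 lower past the test, and the 6 fibroblast markers to 1686 to 5358 CPM and 964 to 8309 CPM, with none past the test. Hepatocyte markers summed to 4978 CPM in WT replicate 2, with 33870 counts of Alb, and to between 62.1 and 432 CPM in the other libraries. In those others most of the sum was Cyp2e1, with 396 and 244 CPM in WT replicates 1 and 3 and 59 to 79 CPM in sST2-KO. The 2 of 8 that could be tested, Alb and Cyp2e1, were lower past the test. Outside WT replicate 2, Alb had 254 and 30 counts in WT and 20, 11 and 19 in sST2-KO. In bulk tissue, fewer cells of a type and less RNA per cell cannot be told apart, and the part of these cell types in the results given here was not tested.

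**Figure D1:**
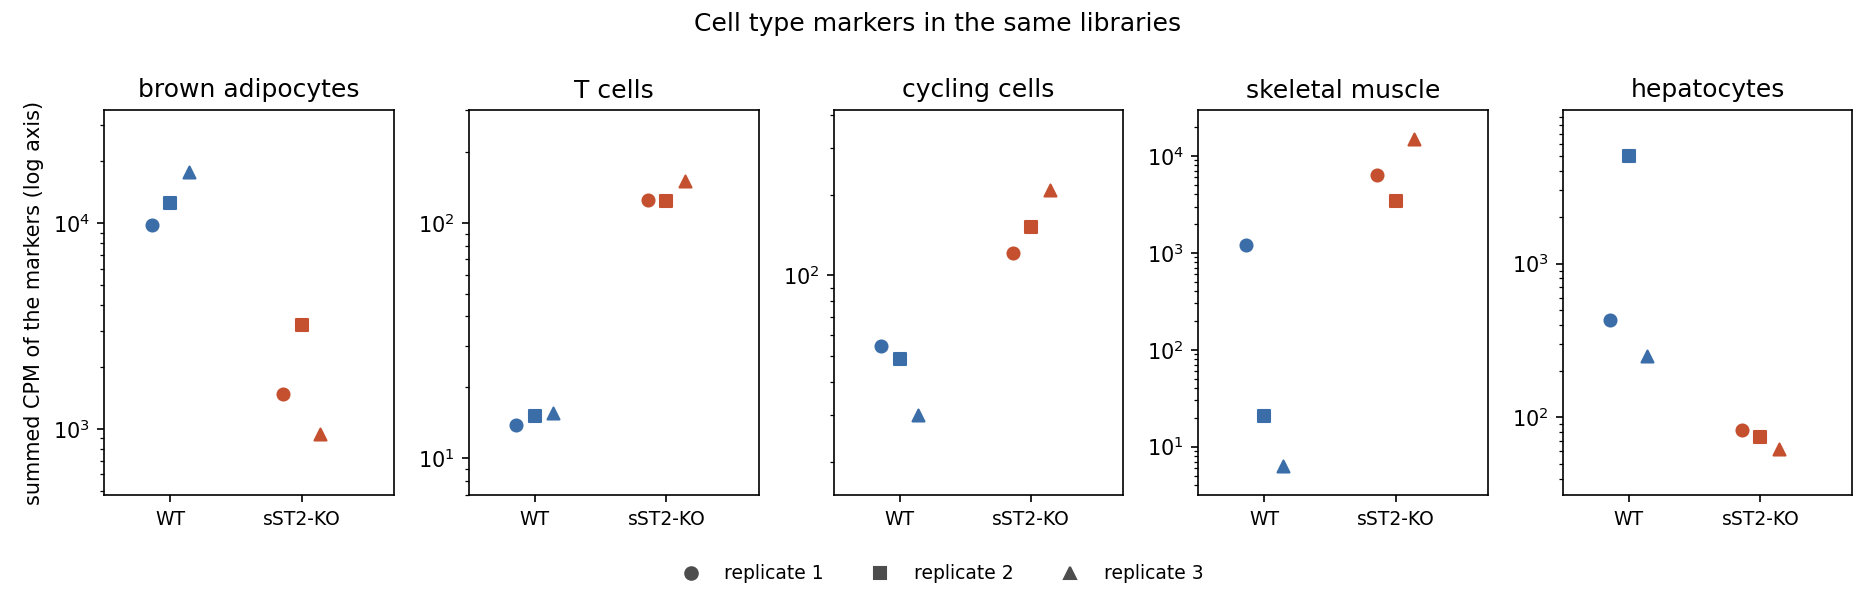
Summed level of 5 lists of cell type markers (CPM, log axis) in each of the 3 WT (blue) and 3 sST2-KO (red) libraries, with 1 symbol per replicate. Brown adipocyte markers are lower in every sST2-KO library, T cell, cycling cell and skeletal muscle markers are higher in every one, and hepatocyte markers stand out in WT replicate 2.

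Over all genes, 19.6% passed the test at an adjusted p under 0.05, 10.5% as higher and 9.10% as lower in sST2-KO. Of the 10 members, 2 passed as higher and 0 as lower, and both that rose did so by more than 2-fold. An unadjusted p under 0.05 was reached by 4 members, beside 5269 of the 14542 genes tested. DESeq2 called 2 members higher and 1 lower, beside 2050 and 1887 of the 14506 genes it tested. The share of members called is close to that of all genes and is not a result about the members. The groups did not overlap in 2 members, both higher in sST2-KO, against 21.8% of all genes with sST2-KO above WT and 19.7% with sST2-KO below WT. The log2 fold changes of the members ran from -1.29 to 1.64 with a median of -0.05, beside a median of 0.03 over all genes tested, and 5 members had a positive and 5 a negative sign.

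**Figure D2:**
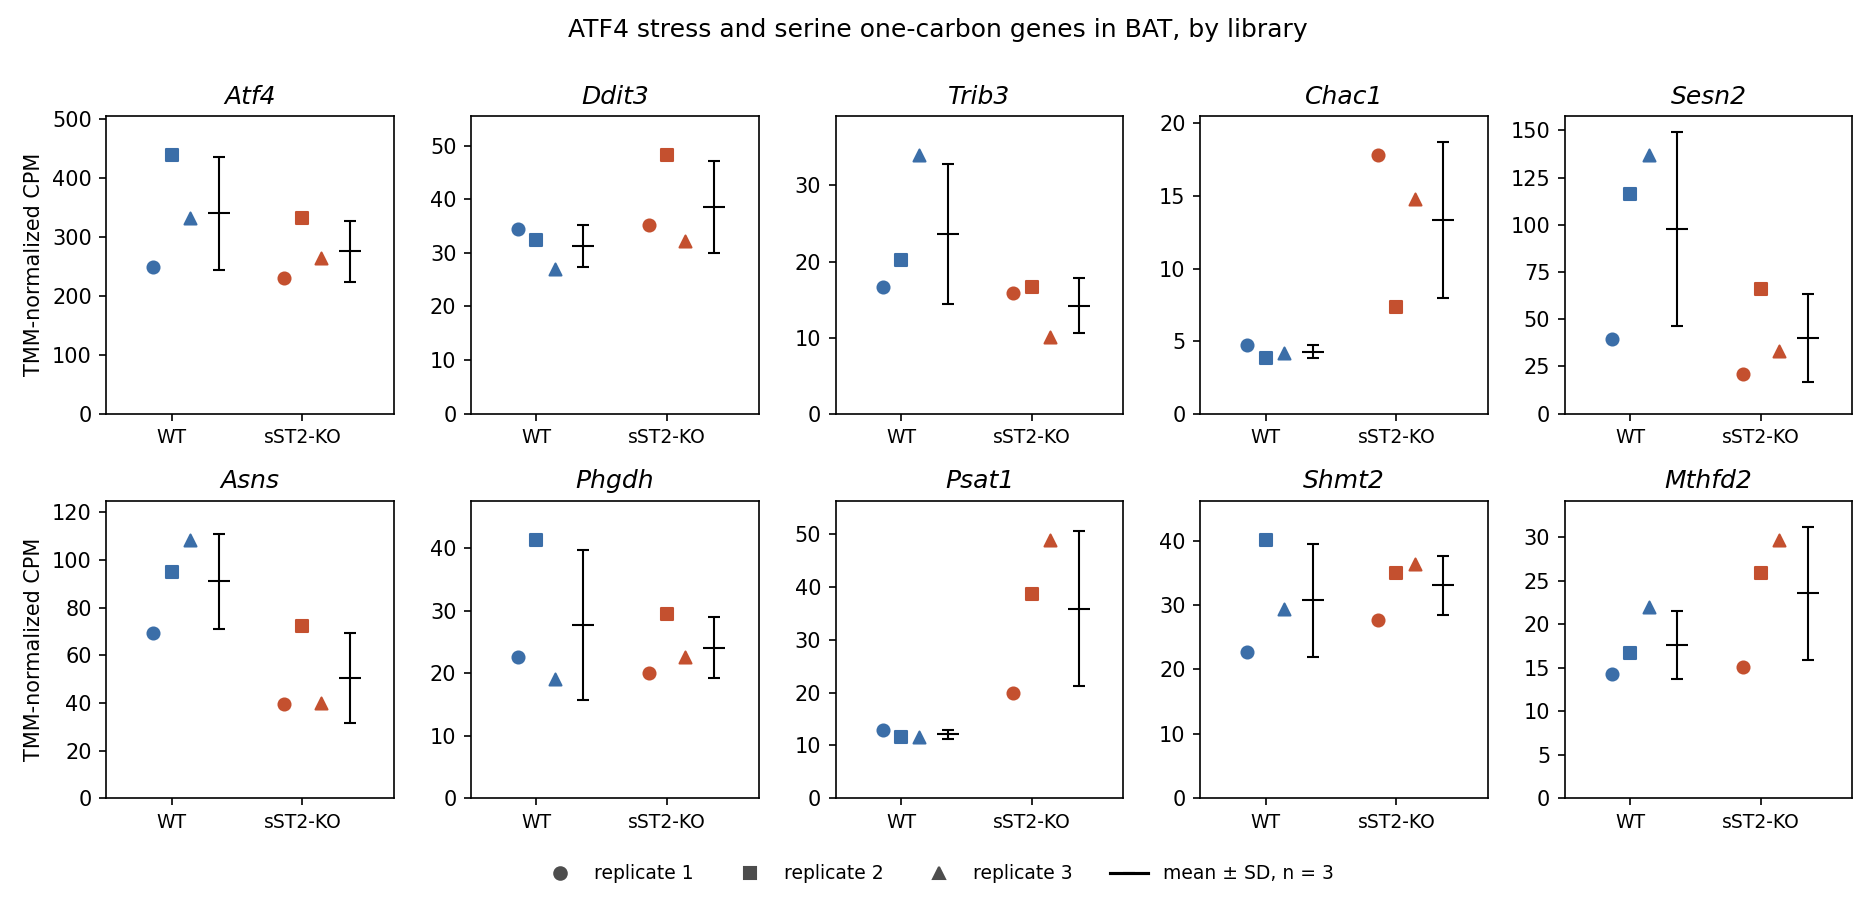
Level of each of the 10 members (TMM-normalized CPM, linear axis from 0) in 3 WT (blue) and 3 sST2-KO (red) libraries, with the mean and SD beside the points. The groups are apart for Chac1 and Psat1, both higher in sST2-KO, and overlap for the other 8 genes.

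Atf4 (chromosome 15, 80139372 to 80141745 of GRCm39, plus strand) encodes the transcription factor that gives the response its name. In WT replicates 1 to 3 its level was 249, 440 and 332 CPM, and in the sST2-KO libraries, in the same order, 231, 333 and 265 CPM. WT replicate 2 was the highest of all, and the sST2-KO values lay within or just under the range of WT. The log2 fold change was -0.30 ± 0.27 (SE, n = 3 per group, adjusted p = 0.467). It was -0.08 without WT replicate 2 and -0.04 with libraries scaled by total counts. Per length of transcript, Atf4 was the most abundant member in both groups, with 195 ± 54.8 CPM per kilobase (SD, n = 3) in WT and 158 ± 29.8 in sST2-KO. The protein was not measured in these data.

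Ddit3 (chromosome 10, 127124268 to 127132163, plus strand) encodes CHOP, a C/EBP family factor of prolonged stress. It had 34.4, 32.4 and 27.0 CPM in WT and 35.2, 48.3 and 32.3 CPM in sST2-KO. Only sST2-KO replicates 1 and 2 were above every WT library, and the change was 0.30 ± 0.21 on the log2 scale (adjusted p = 0.342). Exons of Ddit3 overlap exons of Mbd6 and Mars1 on the opposite strand, whose levels had log2 fold changes of -0.38 ± 0.16 and -0.64 ± 0.21. Whether the counting used strand is not given in the sources used here, so reads of these genes may not be separable where they overlap.

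Trib3 (chromosome 2, 152179337 to 152191958, minus strand) encodes a pseudokinase that is induced by ATF4 and CHOP and holds back ATF4 in turn. WT libraries had 16.6, 20.2 and 34.0 CPM and sST2-KO libraries 15.9, 16.6 and 10.1 CPM. The highest sST2-KO value equalled the lowest WT value within rounding, and WT replicate 3 stood above the other libraries. The log2 fold change was -0.73 ± 0.33 (adjusted p = 0.156), and it was -0.38 without WT replicate 3.

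Chac1 (chromosome 2, 119180757 to 119184866, plus strand) encodes an enzyme that breaks down glutathione and is a late target of ATF4 and CHOP. It was read in 51, 41 and 34 counts in WT and in 256, 62 and 150 counts in sST2-KO, or 4.76, 3.86 and 4.19 CPM against 17.8, 7.36 and 14.8 CPM. WT libraries lay close together, sST2-KO libraries were spread out, and the lowest of them, replicate 2, was still above every WT library. Chac1 rose by 1.64 ± 0.36 on the log2 scale, a fitted 3.13-fold (n = 3 per group, adjusted p = 0.0238). Leaving out WT replicate 2 or 3, or sST2-KO replicate 1 or 3, kept the change between 1.37 and 1.63 and put the adjusted p between 0.0503 and 0.0968, above the threshold. Over all genes, those fits called 393, 36, 1502 and 724 higher, in that order, beside 1524 with all libraries. Chac1 was the scarcest member per length in WT, with 2.57 ± 0.27 CPM per kilobase of transcript (SD), and had 8.02 ± 3.24 in sST2-KO.

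Sesn2 (chromosome 4, 132219335 to 132237815, minus strand) encodes sestrin 2, a stress-induced leucine sensor that restrains mTORC1. It varied widely within WT, with 39.7, 116 and 137 CPM, and had 21.0, 65.9 and 33.1 CPM in sST2-KO. sST2-KO replicate 2 was above WT replicate 1, while the other sST2-KO libraries were below all of WT. The log2 fold change of -1.29 ± 0.54 did not pass the test (adjusted p = 0.131), and its value ran from -1.87 to -0.97 as each library was left out in turn.

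Asns (chromosome 6, 7671667 to 7728461, minus strand) encodes asparagine synthetase, a classic target of ATF4 under amino acid shortage. WT libraries had 69.4, 95.0 and 109 CPM, and sST2-KO libraries 39.4, 72.3 and 39.9 CPM. The groups overlapped through sST2-KO replicate 2 and WT replicate 1 alone. The log2 fold change of -0.85 ± 0.30 did not pass the test in edgeR (adjusted p = 0.0816), and DESeq2 gave -0.87 at an adjusted p of 0.0421. Without sST2-KO replicate 2 the change was -1.22 and passed in edgeR (adjusted p = 0.0330). Leaving out any other single library gave -1.02 to -0.70 in edgeR and did not pass (adjusted p from 0.0732 to 0.25). With libraries scaled by total counts the change was -0.59 in edgeR (adjusted p = 0.132).

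Phgdh (chromosome 3, 98220484 to 98255047, minus strand) encodes phosphoglycerate dehydrogenase, which takes the first step of serine synthesis. Its level was 22.6, 41.4 and 19.1 CPM in WT and 20.1, 29.6 and 22.6 CPM in sST2-KO. WT replicate 2, the library with hepatocyte markers, held the highest value, as it did for Atf4 and Shmt2. The sST2-KO libraries lay within the range of WT. The log2 fold change of -0.21 ± 0.32 (adjusted p = 0.681) turned to 0.20 without WT replicate 2 and to 0.04 with libraries scaled by total counts. The genome also holds a pseudogene, Phgdh-ps1, whose reads may be counted with Phgdh.

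Psat1 (chromosome 19, 15882039 to 15924701, minus strand) encodes phosphoserine aminotransferase, the next enzyme after PHGDH. It had 139, 124 and 94 counts in WT and 287, 326 and 495 counts in sST2-KO, or 13.0, 11.7 and 11.6 CPM against 20.0, 38.7 and 48.9 CPM. WT libraries were nearly equal, and every sST2-KO library was above them, with replicate 1 the lowest. Psat1 rose by 1.57 ± 0.33 on the log2 scale, a fitted 2.96-fold (adjusted p = 0.0206). Without WT replicate 2 or WT replicate 3 the change was 1.54 and 1.53 with adjusted p of 0.0680 and 0.0887. Over all genes, those fits called 393 and 36 higher, beside 1524 with all libraries. Among the sST2-KO libraries Psat1 was lowest in replicate 1, where Chac1 was highest, and Chac1 was lowest in replicate 2.

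Shmt2 (chromosome 10, 127352266 to 127358323, minus strand) encodes the mitochondrial serine hydroxymethyltransferase, which passes a carbon from serine to folate. It had 22.8, 40.2 and 29.3 CPM in WT and 27.7, 35.0 and 36.3 CPM in sST2-KO, with all of sST2-KO inside the range of WT. The change of 0.10 ± 0.24 on the log2 scale (adjusted p = 0.795) became -0.08 without WT replicate 1. Part of its exons overlaps Ndufa4l2 on the opposite strand, which had a log2 fold change of -0.27 ± 0.26.

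Mthfd2 (chromosome 6, 83282673 to 83302890, minus strand) encodes the mitochondrial dehydrogenase and cyclohydrolase that acts after SHMT2. WT libraries had 14.3, 16.7 and 21.9 CPM and sST2-KO libraries 15.1, 25.9 and 29.7 CPM. sST2-KO replicates 2 and 3 were above all of WT and replicate 1 was near the lowest WT library. The log2 fold change was 0.42 ± 0.30 (adjusted p = 0.358).

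**Figure D3:**
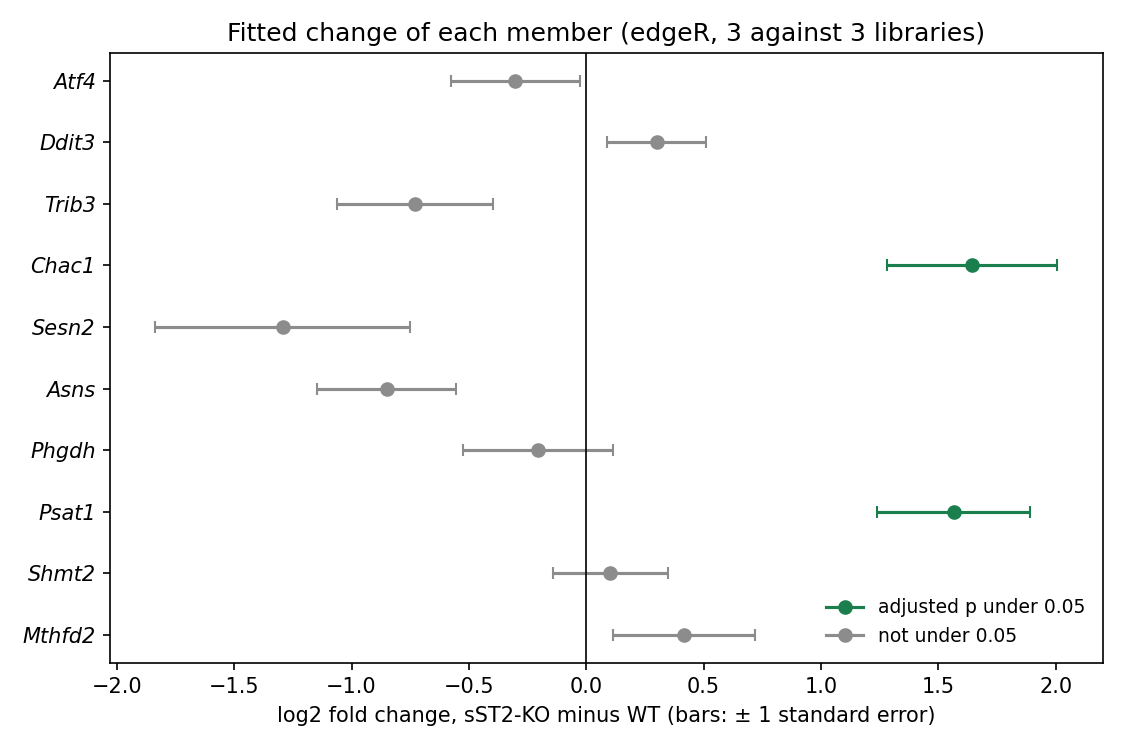
Fitted log2 fold change (sST2-KO minus WT) of each member on the horizontal axis, with bars of 1 standard error, from edgeR on 3 against 3 libraries. Chac1 (1.64) and Psat1 (1.57), in green, have an adjusted p under 0.05, and the other 8 genes, in grey, lie between -1.29 and 0.42.

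Levels were put in order per length. Atf4 was first of the 10 members per length in both groups, whether the whole transcript or the coding part was used. Psat1 was in place 9 in WT with 4.61 ± 0.29 CPM per kilobase of transcript and in place 4 in sST2-KO with 13.7 ± 5.59. Sesn2 was in place 3 in WT (28.0 ± 14.7) and in place 6 in sST2-KO (11.5 ± 6.66). Trib3 was in place 7 in WT (11.3 ± 4.40) and last in sST2-KO (6.79 ± 1.71). Neighbours in the order mostly differed by less than their SD, as Shmt2 (14.4 ± 2.01) and Psat1 did in sST2-KO. The middle places depended on the length used. The annotated Asns transcript of 4901 bases is far longer than its coding part of 1683 bases, and Asns was in place 8 by transcript and 4 by coding length in sST2-KO.

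Ratios of counts between members within a library do not depend on how libraries are scaled. The pairs were chosen after the values were seen, so the ratios are given without a test. Psat1 had 0.57, 0.28 and 0.61 counts for each count of Phgdh in WT and 1.00, 1.31 and 2.16 in sST2-KO. The transcripts of these consecutive steps of serine synthesis were in a higher proportion of Psat1 in every sST2-KO library than in any WT library. Psph encodes the last enzyme of serine synthesis. For each count of Psph, Psat1 had 1.13, 0.67 and 0.75 counts in WT and 1.68, 1.90 and 3.30 in sST2-KO. Ratios with Psat1 or Chac1 as numerator, here and below, share the rise of that gene and are not separate results.

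Against Asns, another enzyme gene of amino acid synthesis, the ratio of Psat1 was 0.19, 0.12 and 0.11 in WT and 0.51, 0.54 and 1.23 in sST2-KO. Chac1 had 0.29, 0.19 and 0.12 counts per count of Trib3 in WT and 1.12, 0.44 and 1.47 in sST2-KO. These ratios did not overlap between the groups. The ratio of Chac1 to Ddit3 did overlap, since sST2-KO replicate 2 had 0.152 and WT replicate 3 had 0.155. The ratios of Asns, Sesn2 and Trib3 to Atf4 overlapped between the groups too, while those of Chac1 and of Psat1 to Atf4 were higher in every sST2-KO library.

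**Figure D4:**
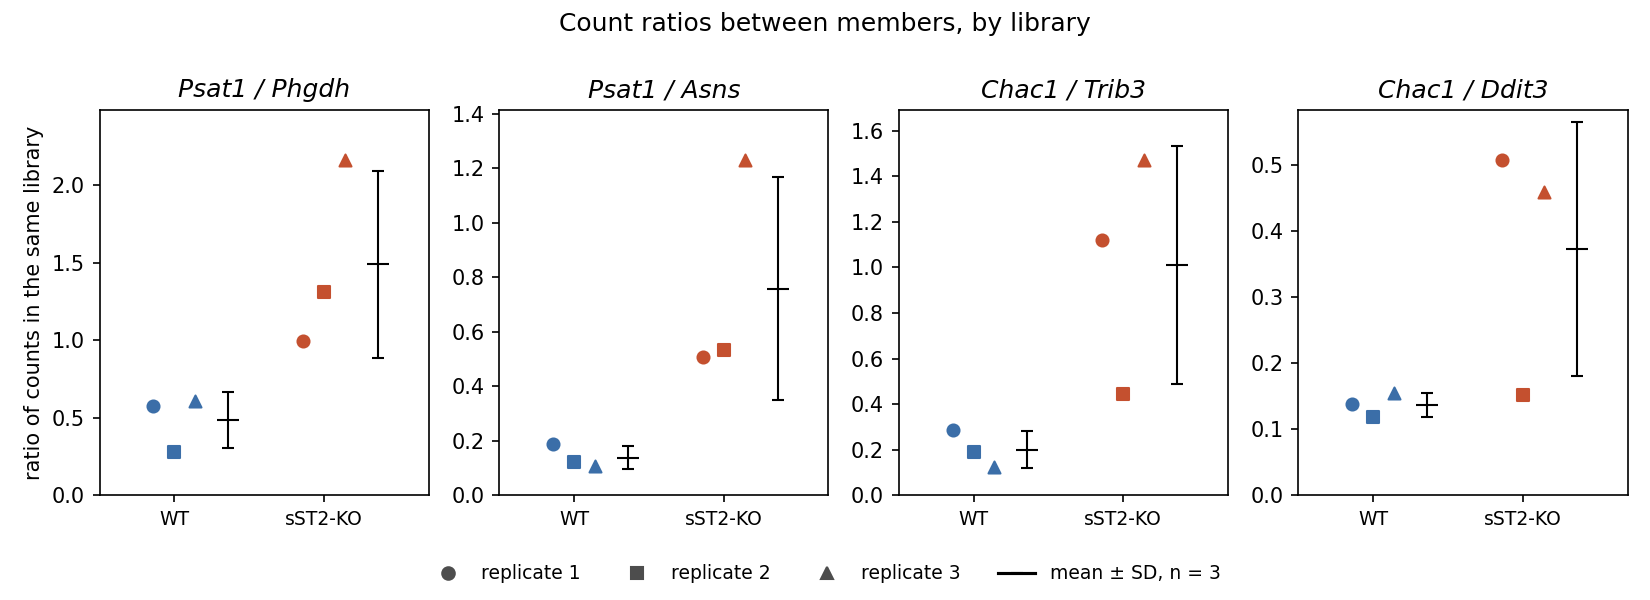
Ratio of counts between pairs of members within each library (linear axis from 0), with WT in blue, sST2-KO in red, 1 symbol per replicate, and the mean and SD of 3 libraries beside the points. Psat1 to Phgdh, Psat1 to Asns and Chac1 to Trib3 are higher in every sST2-KO library, and Chac1 to Ddit3 overlaps through sST2-KO replicate 2.

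Promoter sequences are shown for the pair of members that rose and for the pair of members with the same motifs that did not rise. They are the 250 bases before the gene start in RefSeq, on the strand of the gene, in the build GRCm38.p6, whose coordinates differ from those of GRCm39 given above. Capitals mark a match to TGATGNAA, the core of the C/EBP-ATF response element, on either strand, or to TGGTGCAAT, an element that was searched after the sequences had been seen. The windows are chr2:119350992-119351241 for Chac1 (plus strand), chr6:7693210-7693459 for Asns (minus strand), chr19:15925060-15925309 for the upstream start of Psat1 (minus strand) and chr2:152344061-152344310 for Trib3 (minus strand).
Chac1: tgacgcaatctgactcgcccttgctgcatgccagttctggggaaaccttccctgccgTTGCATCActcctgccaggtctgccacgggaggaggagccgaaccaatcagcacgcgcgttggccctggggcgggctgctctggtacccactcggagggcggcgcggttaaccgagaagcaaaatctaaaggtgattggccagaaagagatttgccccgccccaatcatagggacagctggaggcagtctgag
Asns: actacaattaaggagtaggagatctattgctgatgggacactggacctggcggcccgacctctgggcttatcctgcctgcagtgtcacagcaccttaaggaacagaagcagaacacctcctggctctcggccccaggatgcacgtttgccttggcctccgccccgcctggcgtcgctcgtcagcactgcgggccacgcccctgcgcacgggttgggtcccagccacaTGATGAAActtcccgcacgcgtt
Psat1: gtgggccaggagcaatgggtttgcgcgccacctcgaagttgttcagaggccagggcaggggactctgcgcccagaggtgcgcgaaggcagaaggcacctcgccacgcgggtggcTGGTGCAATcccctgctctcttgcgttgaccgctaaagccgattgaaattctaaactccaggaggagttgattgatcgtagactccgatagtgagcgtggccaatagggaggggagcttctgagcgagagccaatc
Trib3: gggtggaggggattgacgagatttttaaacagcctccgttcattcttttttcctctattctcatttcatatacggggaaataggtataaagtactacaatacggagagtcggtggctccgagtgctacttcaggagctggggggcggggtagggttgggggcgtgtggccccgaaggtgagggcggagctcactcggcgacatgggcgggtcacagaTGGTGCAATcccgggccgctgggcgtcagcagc

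TGATGNAA was found in 2 of the 10 members and in 3.45% of 32851 RefSeq promoters of the same length. In Asns it reads TGATGAAA at bases 23 to 16 before the start, and in Chac1 the reverse strand holds it as TTGCATCA at bases 193 to 186. Chac1 rose in sST2-KO BAT and Asns did not. TGGTGCAAT was found in Psat1 at bases 136 to 128 and in Trib3 at bases 33 to 25. It was added after these sequences had been seen. Its share of 0.0761% of all promoters therefore cannot be set against the members. Psat1 rose and Trib3 did not.

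The cAMP response element TGACGTCA was found in 0 of the 10 members and in 1.55% of promoters. CCACG, a part of the ER stress response element, was found in 6 members (28.3% of promoters), and CCAAT in 7 members (33.8% of promoters). Both matches occur in the windows of Chac1 and Psat1, and also in those of Atf4, Phgdh and Sesn2. A match describes the letters of this window only.

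The genes that act upstream of Atf4 were described as a list of 15 eIF2 kinases and factors of the eIF2 cycle. Beside 10.5% higher and 9.10% lower over all genes, 0 of the 15 rose and 2 fell past the test. The median log2 fold change of the 15 was 0.31. An unadjusted p under 0.05 was reached by 4 of them, beside 5269 of the 14542 genes tested. Eif2b4 and Eif2b3 encode subunits of eIF2B, the exchange factor that phosphorylated eIF2 blocks. Eif2b4 had 46.6, 49.0 and 68.4 CPM in WT and 34.4, 24.7 and 25.9 CPM in sST2-KO and fell by 0.95 on the log2 scale (adjusted p = 0.0288), and Eif2b3 had 20.9, 30.3 and 36.0 CPM and 16.0, 16.3 and 16.3 CPM and fell by 0.84 (adjusted p = 0.0440). Every sST2-KO library was below every WT library for both genes. Genes of the related lists were named by a rule that required no overlap, so this order was fixed by the choice. Of all genes tested, 19.7% had sST2-KO below WT without overlap. With libraries scaled by total counts Eif2b4 and Eif2b3 were at -0.66 and -0.56 and did not pass. Neither passed without WT replicate 2, WT replicate 3, sST2-KO replicate 2 or sST2-KO replicate 3 (log2 fold changes from -1.02 to -0.66). Over all genes, leaving out those libraries in turn called 483, 22, 929 and 692 lower, beside 1323 with all libraries. Eif2b3 also did not pass without sST2-KO replicate 1 (-0.83) or with no filter on low counts (-0.84, adjusted p = 0.0537), which left 1 gene of the list lower. Total counts, or leaving out WT replicate 1, called 1 gene of the list higher.

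Among the kinase genes, which are named here for their role and after their values were seen, none passed. Eif2ak3, the gene of the ER kinase PERK, had 18.5, 12.0 and 17.1 CPM in WT and 23.6, 17.9 and 17.6 CPM in sST2-KO. Eif2ak4, the gene of the amino acid sensor GCN2, had 17.7, 14.9 and 13.3 CPM against 21.8, 18.5 and 18.6 CPM. Eif2ak2, the gene of the RNA sensor PKR, had the largest log2 fold change of the kinases with 0.67 ± 0.25 (adjusted p = 0.0934), and Eif2ak1, the gene of the haem-regulated kinase, had -0.17 ± 0.17 (adjusted p = 0.518).

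Of 26 other target genes of ATF4, 1 rose and 2 fell past the test, beside 10.5% and 9.10% of all genes. The median log2 fold change of the 26 was 0.00. An unadjusted p under 0.05 was reached by 10 of them, beside 5269 of the 14542 genes tested. DESeq2 called 4 higher and 4 lower, beside 2050 and 1887 of 14506 genes. Slc7a5, the gene of the leucine transporter LAT1, had 4.29, 9.33 and 6.16 CPM in WT and 12.6, 33.1 and 28.2 CPM in sST2-KO and rose by 1.90 ± 0.43 (adjusted p = 0.0264). Its partner chain in the membrane, encoded by Slc3a2, had a log2 fold change of -0.64 ± 0.33 (adjusted p = 0.211).

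The target genes that fell were Atf5 and Stc2. Atf5 encodes a transcription factor linked to the mitochondrial stress response, and it fell from 154, 177 and 279 CPM in WT to 32.2, 60.0 and 45.7 CPM in sST2-KO (log2 fold change -2.15 ± 0.32, adjusted p = 0.0136). Stc2 encodes the secreted protein stanniocalcin 2 and had 9.05, 6.31 and 9.37 CPM against 1.25, 2.49 and 1.48 CPM (-2.26 ± 0.37, adjusted p = 0.0148). For both genes the highest sST2-KO library was below the lowest WT library, as the naming rule required. Of all genes tested, 19.7% had this order. Without WT replicate 3 none of the list's genes passed, with -1.85 for Atf5 (adjusted p = 0.0594), -2.16 for Stc2 (0.0646) and 1.85 for Slc7a5 (0.106). Over all genes, that fit called 36 higher and 22 lower, beside 1524 and 1323 with all libraries. Slc7a5 also lost its call without WT replicate 1, sST2-KO replicate 2 or sST2-KO replicate 3, at 1.61 to 1.79, and without WT replicate 1 the list had 5 genes lower. Over all genes, leaving out those libraries in turn called 1189, 1067 and 724 higher.

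In some other targets 1 library stood far from the rest of its group, and they are named here after their values were seen. Slc7a11, the cystine transporter gene, had 3, 12 and 6 counts in WT and 38, 7 and 373 counts in sST2-KO, so that sST2-KO replicate 3 alone was far above the rest (log2 fold change 4.21 ± 1.40, adjusted p = 0.0714). Cth, a gene of cysteine synthesis, had 56, 624 and 70 counts in WT and 37, 24 and 45 counts in sST2-KO (-2.88 ± 0.90, adjusted p = 0.0607), with its high value in WT replicate 2, the library with hepatocyte markers. Gdf15, which encodes a stress-induced hormone, had 2.61, 17.3 and 1.48 CPM in WT and 16.2, 46.4 and 15.5 CPM in sST2-KO, and all 3 sST2-KO libraries were above WT replicates 1 and 3 while WT replicate 2 overlapped them (1.85 ± 0.88, adjusted p = 0.175).

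The 18 cytosolic aminoacyl-tRNA synthetases are enzymes that charge tRNAs and are partly under ATF4. In edgeR 0 of the 18 rose and 0 fell past the test, beside 10.5% and 9.10% of all genes. The median of the 18 synthetases was -0.22, with 13 of 18 genes of negative sign. An unadjusted p under 0.05 was reached by 4 of them, beside 5269 of the 14542 genes tested. DESeq2 called 0 higher and 2 lower, beside 2050 and 1887 of 14506 genes. Their log2 fold changes lay between -0.73 and 0.51. Without WT replicate 1, edgeR called 1 of them lower, and with libraries scaled by total counts it called 2 higher.

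Of 22 other genes of serine and one-carbon metabolism, 2 rose and 4 fell past the test, beside 10.5% and 9.10% of all genes. The median log2 fold change of the 22 was -0.19. An unadjusted p under 0.05 was reached by 9 of the 22, beside 5269 of the 14542 genes tested. The genes that rose were Mthfd1l and Tyms. Mthfd1l encodes the mitochondrial enzyme that releases formate for the cytosol, and it had 2.99, 4.81 and 5.06 CPM in WT and 11.1, 15.2 and 17.5 CPM in sST2-KO (1.77 ± 0.31, adjusted p = 0.0156). Tyms encodes thymidylate synthase, which uses a folate carbon for DNA synthesis, and had 7.09, 5.75 and 6.53 CPM against 8.85, 14.0 and 15.3 CPM (0.97 ± 0.28, adjusted p = 0.0497). The call of Tyms was close to the threshold and was lost with RLE factors (adjusted p = 0.0538), with no filter (0.0637) and without WT replicate 1 or 2 or sST2-KO replicate 2 or 3 (0.0781 to 0.143). Over all genes, leaving out those libraries in turn called 1189, 393, 1067 and 724 higher, beside 1524 with all libraries. Both genes were higher in every sST2-KO library, as the naming rule required. The summed markers of cycling cells were higher in every sST2-KO library too.

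The genes that fell were Slc25a32, Shmt1, Gcsh and, outside the naming rule, Aldh1l1. Slc25a32, the gene of the mitochondrial folate carrier, had 62.9, 32.8 and 99.6 CPM in WT and 26.3, 16.3 and 13.4 CPM in sST2-KO (-1.80 ± 0.43, adjusted p = 0.0293). Shmt1, the cytosolic counterpart of Shmt2, had 32.4, 49.7 and 49.1 CPM against 19.1, 18.3 and 9.38 CPM (-1.49 ± 0.31, adjusted p = 0.0215), whereas Shmt2 did not pass. Gcsh, a gene of the mitochondrial glycine cleavage system, had 89.8, 104 and 124 CPM against 32.6, 48.4 and 35.5 CPM (-1.45 ± 0.22, adjusted p = 0.0136). These genes had no overlap between the groups, as the naming rule required. Aldh1l1, a cytosolic folate enzyme gene, did not overlap either, with -0.84 ± 0.21 (adjusted p = 0.0347). The brown adipocyte markers moved the same way.

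Psph, the gene of the step after PSAT1, had 11.5, 17.3 and 15.4 CPM in WT and 11.9, 20.4 and 14.8 CPM in sST2-KO, a change of 0.09 ± 0.28 on the log2 scale (adjusted p = 0.845). Along the route from the glycolytic intermediate to serine, Psat1 was the single gene of the 3 that passed. Cbs, which takes the carbon skeleton of serine to cystathionine, had 14, 364 and 32 counts in WT and 17, 4 and 11 counts in sST2-KO, again with WT replicate 2 far above the rest (-3.80 ± 1.18, adjusted p = 0.0591). Without WT replicate 3 none of the 22 genes passed, with values of 1.89 for Mthfd1l (adjusted p = 0.0643), 0.98 for Tyms (0.153), -1.36 for Slc25a32 (0.103), -1.40 for Shmt1 (0.0880) and -1.33 for Gcsh (0.0615). Over all genes, that fit called 36 higher and 22 lower, beside 1524 and 1323 with all libraries. Without WT replicate 2, sST2-KO replicate 2 or sST2-KO replicate 3, the list had 1 gene higher and 2 lower, and without WT replicate 1 it had 1 higher and 3 lower.

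The chaperone branch of the unfolded protein response runs beside the ATF4 branch and depends on ATF6 and XBP1. Of its 15 genes, 5 rose and 0 fell past the test, 3 of them by more than 2-fold, and the median log2 fold change was 0.41. Among all genes tested, 10.5% rose and 9.10% fell. DESeq2 called 1 gene of the branch lower, and Dnajb9, an ER co-chaperone gene named after its values were seen, was below WT in every sST2-KO library without passing in edgeR (-0.64 ± 0.20, adjusted p = 0.0638). Xbp1, the gene of the factor that IRE1 activates by splicing, had 173, 116 and 74.7 CPM in WT and 263, 284 and 327 CPM in sST2-KO (1.26 ± 0.32, adjusted p = 0.0330). Sdf2l1, an ER chaperone gene, had 8.96, 12.8 and 7.64 CPM against 17.6, 29.6 and 34.8 CPM (1.47 ± 0.32, adjusted p = 0.0238). Pdia4, a disulfide isomerase gene, had 68.1, 84.5 and 39.3 CPM against 112, 164 and 143 CPM (1.13 ± 0.30, adjusted p = 0.0403).

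The other genes of the branch that rose were Dnajb11 (0.87 ± 0.20) and Edem1 (0.78 ± 0.22), named outside the rule. Hspa5, the gene of the main ER chaperone BiP, had 477, 566 and 403 CPM in WT and 602, 914 and 716 CPM in sST2-KO, without overlap, and did not pass (0.63 ± 0.26, adjusted p = 0.130). The count of 5 was 4 without sST2-KO replicate 1, 1 without WT replicate 1 or 2, and 0 without WT replicate 3, sST2-KO replicate 2 or sST2-KO replicate 3. Over all genes, 1524 were higher with all libraries, and 1502, 1189 and 393 without sST2-KO replicate 1, WT replicate 1 and WT replicate 2. Without WT replicate 3, sST2-KO replicate 2 and sST2-KO replicate 3 they were 36, 1067 and 724. The log2 fold changes of Xbp1, Sdf2l1 and Pdia4 stayed above 0 in each of these fits, with the lowest values at 1.00, 1.25 and 0.87. The summed markers of T cells and of macrophages were also higher in the sST2-KO libraries, and their part was not tested. Of the 8 macrophage markers, 2 passed the test and 4 had no overlap between the groups. Of all genes tested, 10.5% passed as higher and 21.8% had sST2-KO above WT without overlap.

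**Figure D5:**
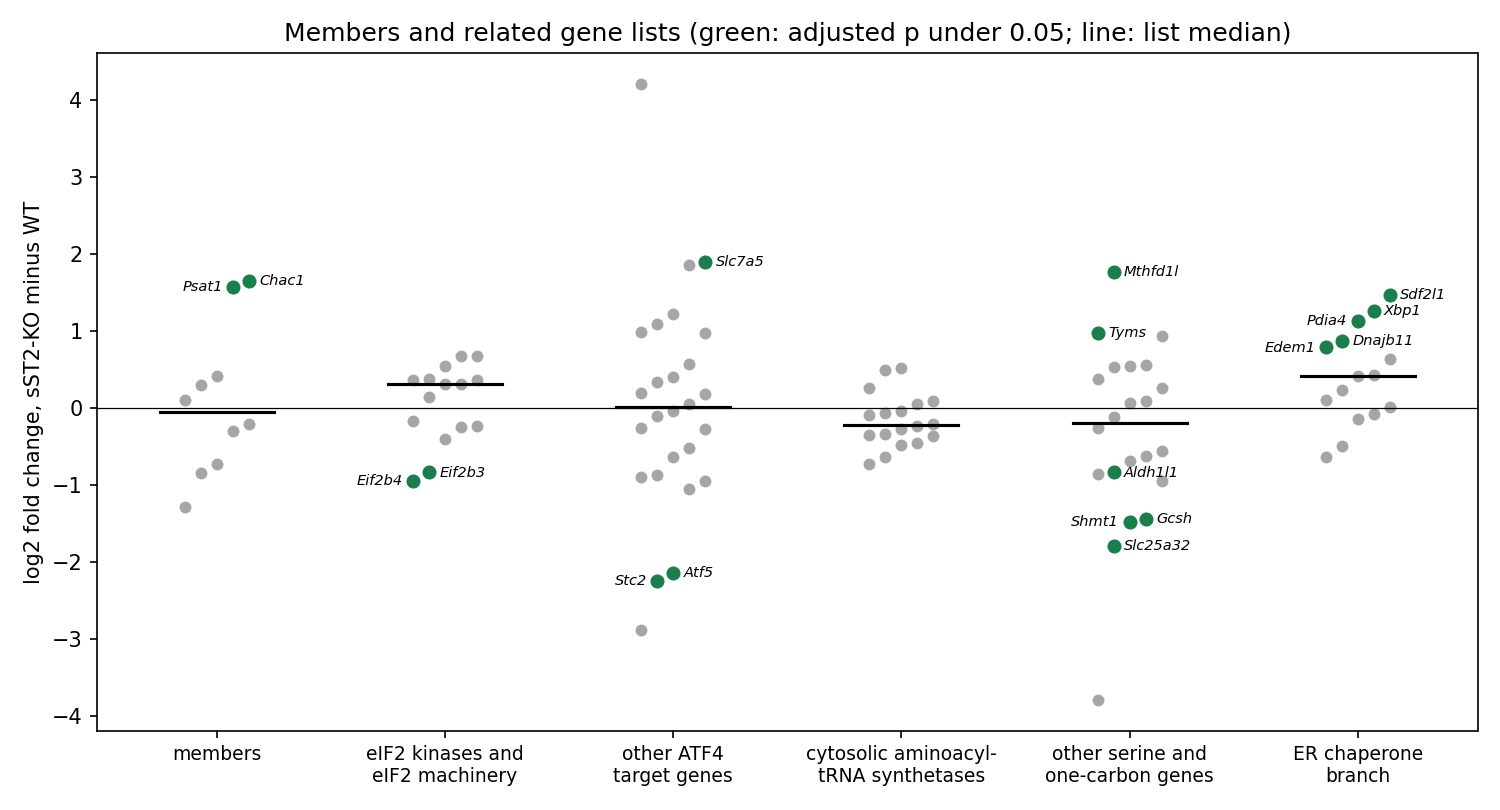
Fitted log2 fold change (sST2-KO minus WT, vertical axis) of each tested gene of the 10 members and the 5 related lists, with the list median as a black line. Genes with an adjusted p under 0.05 are green and labelled, and both directions occur among the other ATF4 targets and the other serine and one-carbon genes, while the 5 green genes of the ER chaperone branch are all higher.

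Over the 5 related lists, 8 of 96 genes rose and 8 fell past the test, beside 10.5% and 9.10% of all genes tested. These pooled shares are close to or below those of all genes, so the pooled counts are not a result about the lists together. By list, 5 of 15 genes of the ER chaperone branch rose, and 4 of the 22 other serine and one-carbon genes fell. Without WT replicate 3 both of these counts were 0, beside 36 genes higher and 22 lower in the whole table. Of the 18 synthetases 0 rose and 0 fell in edgeR, and DESeq2 called 2 lower. The lists were chosen with earlier results of these data known, so these counts are descriptions only. No list was tested as a set.

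The genes whose pattern over the 6 libraries was most like that of Atf4, out of 11619 candidates whose log2 CPM averaged 2 or more, were Tle3, Bag3 and Parp1. Their root mean square distances from the centred log2 CPM of Atf4 were 0.0439, 0.0553 and 0.0574, and their log2 fold changes were -0.28, -0.36 and -0.39. For Phgdh, the nearest genes were Dnajb1, Gprc5b and Ppan, with distances of 0.137, 0.139 and 0.145. These are descriptions over 6 libraries without a test.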

How the data were processed

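RNA-seq of BAT covered 3 WT and 3 sST2-KO poly-A libraries, read as 150 bp pairs. The paper gives n = 3 per group, and the sample labels do not name the animals. The authors aligned the reads to mm39 with HISAT2 and deposited the raw counts per gene from htseq-count. The submitters' processing notes name FastQC 0.12.1 and HISAT2 2.2.1. The annotation and the use of strand are not given in the sources used here. Groups and replicate numbers came from the sample titles.

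From these counts, edgeR 4.0.16 (R 4.3.3) was run with filterByExpr, TMM factors and the quasi-likelihood test of sST2-KO against WT. No covariate was used, and p-values were adjusted by Benjamini-Hochberg over 14542 genes. A gene passed at an adjusted p under 0.05. The SE was derived from the log2 fold change and the F value of its test. With 3 against 3 libraries an exact permutation test cannot go below p = 0.1, so none was run. The scripts were tested on simulated data with known fold changes.

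The members, the related lists and the marker lists were chosen with earlier results of these data known. All members were named, with up to 3 rises and 3 falls per related list among genes past the test without overlap, by log2 fold change. Any other gene was picked after its values were seen. Trac, a T cell marker, was not matched in the table, and the synthetases and Dele1 were matched by their older symbols. Gene positions came from GENCODE on GRCm39, and all 10 members were matched in the RefSeq promoter table.

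As alternatives, the test was repeated with DESeq2 1.42.0, scaling by RLE or by total counts, no filter or a filter of 10 counts in every library, robust estimation, a replicate block, a 2-fold minimum, unadjusted p, and without each library in turn. No library was a copy of another, since chi-square per degree of freedom within groups was 36.6 to 104.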

Additional observations from a re-analysis of the deposited data

How the results depend on the processing

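The 2 members called higher remained 2 with DESeq2, RLE factors, total counts, either other filter, robust estimation, a 2-fold minimum and unadjusted p, and were between 0 and 2 as each library was left out. Under the replicate block the count was 0, with log2 fold changes of 1.56 for Chac1 (adjusted p = 0.0692) and 1.48 for Psat1 (0.0726). That fit called 0 genes of 14542, with 4623 at an unadjusted p under 0.05. Deviations of same-numbered libraries correlated at -0.06, 0.21 and -0.31. So few values cannot decide whether same-numbered libraries belong together, and the labels do not say. The members called lower were 0, but 1 (Asns) with DESeq2, 2 (Asns and Sesn2) by unadjusted p, and between 0 and 1 as each library was left out. Phgdh changed sign with total counts (0.0394) and without WT replicate 2 (-0.4164 to 0.2028 over the libraries left out), and Shmt2 without WT replicate 1 (-0.0808 to 0.3394). Total counts moved the median of all genes to 0.29 and that of the members to 0.20, with 2181 genes higher and 891 lower in place of 1524 and 1323. The cause of these changes was not tested. Without WT replicate 3, the whole table had 36 genes higher and 22 lower, and the other 13 named genes lost their calls with that library left out and with the block. None of those 13 changed sign under any alternative. Low counts limit Chac1, with 34 to 51 counts in WT.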
